A study of Mus musculus with 48 samples.

Results

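The transcripts described here were the 150 probe sets that varied least, within a window of high intensity, over 2 days in synchronised mouse fibroblasts. They were chosen by their measured values. A probe set had to carry exactly 1 gene symbol, to be no array control and to have a mean log2 intensity from 13 to 17 over 48 arrays, which 9794 of 45037 probe sets did and which are called bright below. The 150 bright probe sets of smallest standard deviation (SD) of log2 intensity were kept, 1.53% of the bright ones. They stood for 145 genes, because Pdrg1 had 3 of them and Nus1, Tnpo3 and Prdx4 had 2 each.

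The cells were NIH3T3, a line of mouse fibroblasts, grown to confluence in medium with 10% fetal calf serum and treated with forskolin, a plant compound that switches on adenylate cyclase and so brings the cells' circadian clocks into a common phase. RNA was taken every hour from 20 to 67 h after forskolin, with 1 Affymetrix array per hour. All 48 samples formed 1 group. No hour was replicated and no untreated dish was measured, so an SD over hours holds change in the cells, difference between dishes and array error together, and these cannot be told apart. The 8 fibroblast markers looked up, among them Col1a1 and Vim, had mean log2 intensities of 16.40 to 19.01. None of the 4 epithelial, 4 endothelial and 4 leukocyte markers reached 13.

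Transcripts that stay level matter in time-course work because measurements are often expressed relative to them. Genes of protein synthesis, secretion, energy supply and the cytoskeleton are called housekeeping genes since nearly all cells use them. Core clock genes are the opposite case, since their transcripts rise and fall each day through a feedback loop of activators and repressors.

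The selected SDs ran from 0.0211 to 0.0619 log2 units with a median of 0.0558, while the median of all bright probe sets was 0.158. On the linear scale the median coefficient of variation was 3.89% in the 150 and 10.9% in all bright probe sets. The highest hour exceeded the lowest by 1.20-fold in the median member and by 1.09-fold to 1.37-fold across members, against a median of 1.67-fold in all bright probe sets. For the core clock, the 14 bright probe sets listed had a median SD of 0.392, and none was a member. These values describe what the selection used.

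The limit at 150 fell in a dense stretch of values. Just inside it were Prdx4, Dap3, Brms1l, Zfand1 and Rasa2, with SDs of 0.0617, 0.0618, 0.0619, 0.0619 and 0.0619. Just outside were Rhno1, Setd1b, Phf3, Suco and Poglut2, with SDs of 0.0620, 0.0620, 0.0620, 0.0621 and 0.0621. The last member and the first probe set left out differed by 5.53e-05.

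Spread fell as level rose. The median SD of bright probe sets was 0.211 at mean log2 intensities of 13 to 13.5 and 0.106 at 16.5 to 17. The members followed the same slope: 53 of the 150 lay between 16.5 and 17, where they made up 7.0% of probe sets, and 3 lay between 13 and 13.5, where they made up 0.219%. Each member's SD was therefore also divided by the median SD of the bright probe sets of like level, 100 on either side. This ratio had a median of 0.454 in the 150 and 1.00 in all bright probe sets. With the 150 smallest ratios in place of the 150 smallest SDs, 75 members were kept.

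**Figure D1:**
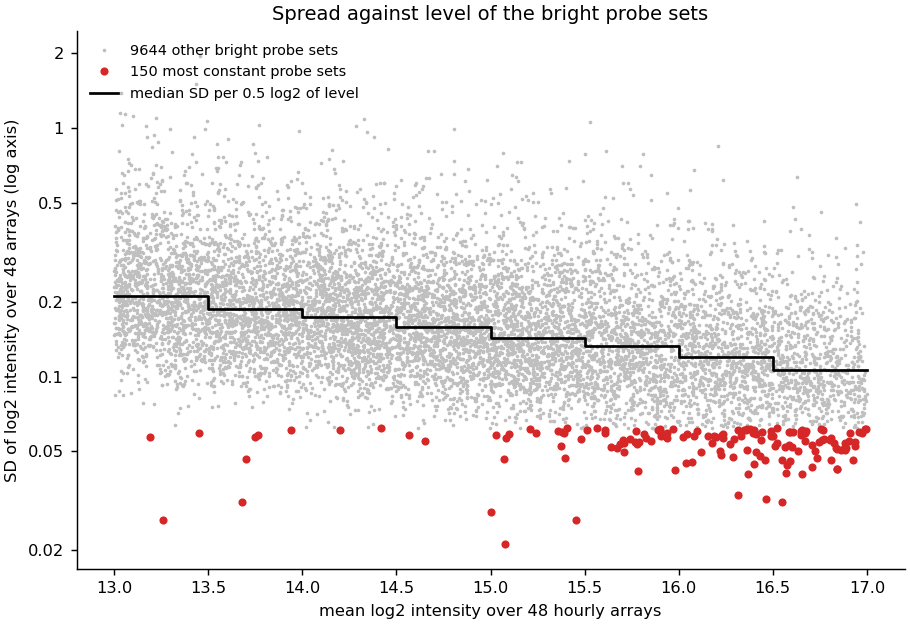
Each point is 1 bright probe set, with its mean log2 intensity over 48 hourly arrays on the x axis and its SD over the same arrays on a logarithmic y axis. The 150 members (red) lie below an SD of 0.062 and gather at the right, and the stepped line, the median SD per 0.5 log2 of level, falls from 0.211 to 0.106.

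The upper limit of the rule left out the brightest transcripts of the array. Above a mean of 17 lay 1054 probe sets with a median SD of 0.0815, and 276 of them (26.2%) had an SD no larger than that of the last member. Cytosolic ribosomal proteins, the building blocks of the translating ribosome, accounted for 69 probe sets above 17, and 55 of these were within the members' limit. With no upper limit, 120 of the 150 smallest SDs would have belonged to probe sets above 17 and 30 members would have remained. The 150 are thus the most constant probe sets of an intensity window and not of the whole array.

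The smallest SD of all belonged to Cdca4, a cell cycle associated regulator of transcription. Its log2 intensity was 15.03 at the lowest hour, 15.08 in the median and 15.18 at the highest, with an SD of 0.0211. Cog1, a subunit of the complex that tethers vesicles at the Golgi, ran from 13.19 through a median of 13.26 to 13.40 (SD 0.0265). Rpl7, a protein of the large ribosomal subunit, ran from 15.38 through 15.45 to 15.51 (SD 0.0266). These 3 probe sets and those of Ndufa7 (complex I of the respiratory chain, SD 0.0284), Eif2d (a translation initiation factor, 0.0311) and Sde2 (a protein of splicing and genome maintenance, 0.0333) shared 1 feature that the rule did not use. All 6 had names ending in x_at, the array maker's mark for probe sets with some probes that also match other transcripts.

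Of the 8 smallest SDs, 6 were of x_at probe sets. In the 150 they numbered 23 (15.3%), whereas 590 of the 9794 bright probe sets (6.02%) were of this kind. Several of them did not scatter about a mean but returned to nearly the same value. Cog1 was within 0.01 log2 units of its own median in 41 of 48 arrays and departed from it by at most 0.14, at hour 45. Cdca4 was that close in 39 arrays, Glrx2 in 30 and Eif2d in 29. A total of 10 members were within 0.01 of their median in at least 24 arrays, and all 10 were x_at probe sets: Cdca4, Cog1, Ndufa7, Eif2d, Sde2, Uqcc2, Glrx2, Eif3l, Sf3b6 and Siva1. Of the 9794 bright probe sets 25 were that close in at least 24 arrays, members included, so not only members did this. The median over members was 9.5 arrays, and over all bright probe sets 4, a contrast that a choice by small SD itself brings. The median absolute deviation, scaled to equal the SD of normal scatter, was therefore divided by the SD. This quotient had a median of 0.866 in members and 0.881 in the rest of the bright probe sets, but 0.417 in the 23 x_at members. For x_at probe sets that were no members it was not taken separately. Whether other transcripts contributed to these probe sets was not tested.

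Other bright probe sets of the same genes moved more. The rule fixed this direction, since any within the limit would itself have been a member, and left only the size of the gap free. For Cdca4 the 2 other bright probe sets had SDs of 0.121 and 0.127, and their highest hours exceeded their lowest by 1.56-fold and 1.69-fold, while the member ranged over 1.11-fold. Both fell at hour 36, where the member stayed at its median, in 1 of the 10 arrays with a large difference between the β-actin controls. The other bright probe set of Cog1, itself an x_at probe set, had an SD of 0.274 and ranged over 2.17-fold. For Sde2 the other SDs were 0.184, also of an x_at probe set, and 0.153. The 4 other bright probe sets of Ndufa7, x_at ones among them, had SDs of 0.0628 to 0.132. The 2 of Eif2d had 0.120 and 0.0820. Rpl7 was different: its 2 other probe sets lay at mean log2 intensities of 18.47 and 18.49, above the window, with SDs of 0.0221 and 0.0255. For Cdca4, Cog1 and Sde2 the other SDs were 0.121 or more, well over the 0.0619 up to which the rule would have made them members. For Rpl7 the SDs were alike, but the levels were not. Probe sets at 18 to 19 had a median SD of 0.0602, and those near the level of the member 0.137. Also, 1 of the 2 others of Rpl7 was itself an x_at probe set, so this comparison does not decide for Rpl7.

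**Figure D2:**
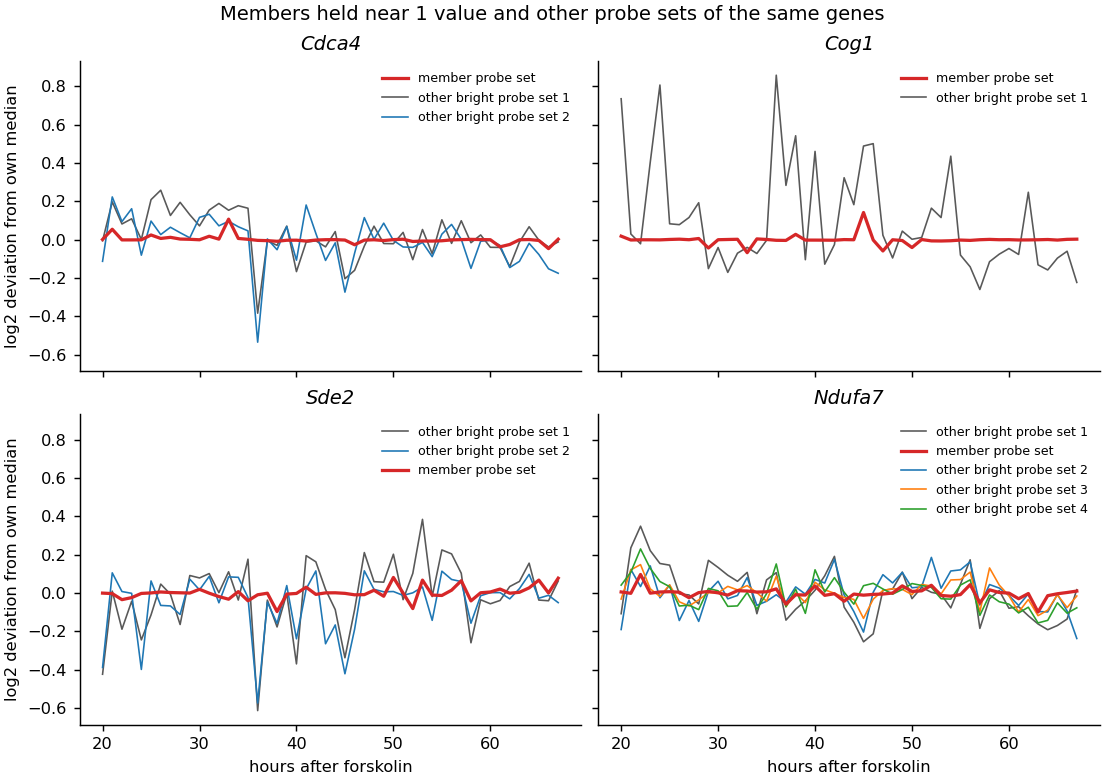
Log2 deviation from its own median is plotted against hours after forskolin for the member (red) and the other bright probe sets of Cdca4, Cog1, Sde2 and Ndufa7. The red lines stay near 0, whereas the other probe sets of Cdca4 and Sde2 dip at hour 36 and that of Cog1 rises at hours 20, 24 and 36.

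Among members of the ordinary kind, Osbp had the smallest SD. It encodes a protein that carries cholesterol and phosphatidylinositol 4-phosphate between the endoplasmic reticulum and the Golgi. Its log2 intensity was 16.47 at hour 36, 16.55 in the median and 16.62 at hour 67 (SD 0.0312). Ppm1b, a protein phosphatase of the PP2C family, ran from 16.40 through 16.46 to 16.53 (SD 0.0320), the smallest fold range of the 150 at 1.09-fold. Nek7, a kinase of mitosis and of the inflammasome, ran from 16.58 through 16.65 to 16.78 (SD 0.0404). Atad1, an ATPase that removes misplaced proteins from the outer membrane of mitochondria, ran from 16.27 through 16.36 to 16.46 (SD 0.0406). Each of the 4 therefore kept within 1.15-fold over all 48 hours. A second bright probe set of Nek7 had an SD of 0.0660 and a ratio to like probe sets of 0.633, and that of Ppm1b an SD of 0.0968 and a ratio of 0.603.

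Promoter sequences are printed for 3 of these genes as examples of what most members shared outside the rule, a start site rich in G, C and CpG. They were taken from RefSeq entries on GRCm38.p6, from 120 bases before the start through the first 20 bases of the transcript. Capitals mark a match on either strand to a GC box (GGGCGG), to a CCAAT box (letters as its name), to an ETS site (CCGGAAG) or to an NRF1 site (GCGCATGC, whose matches on both strands can overlap). Osbp lies at chr19:11965724-11965863 on the plus strand, Nek7 at chr1:138619738-138619877 on the minus strand and Atad1 at chr19:32712279-32712418 on the minus strand.
Osbp: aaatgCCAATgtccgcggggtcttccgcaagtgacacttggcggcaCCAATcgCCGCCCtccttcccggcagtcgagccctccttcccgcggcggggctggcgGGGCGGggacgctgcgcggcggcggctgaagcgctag
Nek7: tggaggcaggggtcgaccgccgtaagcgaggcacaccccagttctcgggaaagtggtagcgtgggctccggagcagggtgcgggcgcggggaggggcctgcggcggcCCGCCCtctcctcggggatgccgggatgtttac
Atad1: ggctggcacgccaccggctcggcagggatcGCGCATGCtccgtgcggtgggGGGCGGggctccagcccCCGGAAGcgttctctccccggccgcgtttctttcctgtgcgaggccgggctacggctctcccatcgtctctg

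RefSeq windows of 300 bases, 250 before and 50 after the start, were on hand for 120 of the 145 genes, 149 windows in all. In 87.2% of them the CpG count was over 0.6 of that expected from the C and G content, against 76.0% of 6977 windows of other bright genes and 35.8% of windows of all genes. A GC box on either strand stood in 70.5% of member windows, 66.6% of other bright and 35.7% of all. The respective shares were 20.8%, 19.4% and 8.86% for the ETS site and 9.40%, 5.86% and 2.71% for the NRF1 site. The TATA box (TATAAA on either strand) was in 5.37%, 6.59% and 13.6%. For the CACGTG element that clock activators bind, the shares were 12.8%, 10.7% and 7.15%. The full cyclic AMP element (TGACGTCA) stood in 2 member windows, of Gpbp1 and Zwint, or 1.34%, against 3.21% of other bright windows. Over all genes its share was 1.79%. The CCAAT box stood in 37.6% of member windows, 38.0% of other bright and 37.4% of all. The shares are descriptions of letters, and no binding was measured.

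The other members among the 25 smallest SDs came from several compartments. Arpc5, a subunit of the Arp2/3 complex that branches actin filaments, ran from 16.48 through 16.57 to 16.70. Tfg, a protein of the exit sites of the endoplasmic reticulum, ran from 15.68 through 15.79 to 15.88, and the splicing factor Cdc40 from 15.90 through 15.98 to 16.07. Their SDs were 0.0407, 0.0418 and 0.0421. From there to 25th place, SDs rose only to 0.0461. In that stretch were Uqcc2 and Sdhd of the respiratory chain, Grpel1 of mitochondrial protein import, Ubxn4, Cnih1, Rab2a and Arf4 of the secretory pathway, Supt16 of the FACT histone chaperone, the lipid kinase Pi4k2b, the galectin relative Lgalsl, Brk1 of the WAVE complex and the unnamed B230219D22Rik. None of the 25 ranged over more than 1.22-fold, the value of Uqcc2.

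For description, 94 of the 150 probe sets, of 92 genes, were put by hand into 7 roles after the members were known. The secretory pathway and endoplasmic reticulum had 23 probe sets with a median SD of 0.0519. They included Arf4 and Rab2a, small GTPases of vesicle traffic, Sec11a of the signal peptidase, Srp9 and Srp19 of the signal recognition particle, and Ganab, the glucosidase that trims new glycoproteins. Rer1, which returns membrane proteins to the endoplasmic reticulum, was in the same group. Mitochondrial proteins had 19, with a median SD of 0.0558, among them the chaperone Hspa9, its partner Dnaja3 and the outer membrane channel Vdac3. The 12 probe sets of mRNA processing and decay had a median of 0.0582. They included Cnot2, Pan3 and Dcp2, which shorten poly(A) tails and remove caps, Tnrc6a of microRNA silencing and Ythdf1, a reader of methylated adenosine. Transcription and chromatin (11, with Taf1, Ctcf, Bmi1 and Supt16), signalling enzymes (11), actin and cell shape (10, with Rhoa and Capza2) and ubiquitin (8) had medians from 0.0545 to 0.0573.

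Gene lists give the share of a pathway's bright probe sets that were members, with 1.53% for all bright probe sets. The shares were not matched for level, with which membership rose. Oxidative phosphorylation had 6 of 84 (7.14%), which were Ndufa7, Sdhd, Atp5k, Ndufab1, Ndufv2 and Ndufb3. The actin, tubulin and cytoskeleton list had 5 of 76 (6.58%): Arpc5, Dynll2, Capza2, Arpc2 and Tpm3. Its median SD was 0.149, near the 0.158 of all bright probe sets, and its median ratio to probe sets of like level was 1.04. The ubiquitin list had 6 of 185 (3.24%), led by Usp33, Ube2d3, Rnf44 and Usp34. Chaperones had 3 of 93 (St13, Dnaja3 and Hspa9), initiation factors 2 of 64 (Eif2d and Eif3l) and vesicle transport 5 of 222, led by Rab2a, Arf4, Sec11a and Snx18. Mitochondrial carriers and import had 2 of 66 (Vdac3 and Tomm7), signalling GTPases and phosphatases 2 of 100 (Rap2c and Rhoa) and general transcription 2 of 101 (Taf1 and Polr1d). Single members came from the mitochondrial ribosome (Mrpl11), the proteasome (Psma7), RNA binding and splicing (Sf3b6), the extracellular matrix list (Lgalsl) and the 14-3-3 proteins (Ywhab).

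No member came from the 166 bright probe sets listed for membrane pumps, adhesion and carriers, the 65 for chromatin and nucleosome or the 32 for the lysosome. The lists were made by gene symbol, and that of chromatin does not hold the members Ctcf, Bmi1 and Supt16, named above. At a share of 1.53%, lists of this size would hold few members. Elongation factors and glycolysis had none of 6 each. These lists were not all alike in spread: the lysosome list had a median SD of 0.177, glycolysis 0.248 and oxidative phosphorylation 0.109. The list of cytosolic ribosomal proteins had 2 members of 18 bright probe sets, Rpl7 and, by its symbol alone, the Rpl7-like Rpl7l1. Its median SD was 0.155 in these 18 and 0.0405 in its 69 probe sets above the window.

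Common reference genes were looked up at their brightest probe set. Of 30 listed, 24 had a probe set with 1 symbol in the annotation used here, 8 inside the intensity window and 16 above it. Only Rer1 was a member, with a log2 intensity of 16.62 at the lowest hour, 16.75 in the median and 16.87 at the highest (SD 0.0555, 72 bright probe sets smaller). In the trend fit described below Rer1 fell by 0.09 over 47 h, and this trend was called. Ipo8, an import receptor of the nucleus, missed the limit at 0.0643, with 192 bright probe sets smaller. Sdha had 0.103, the purine salvage enzyme Hprt 0.114, the TATA-binding protein Tbp 0.148 and the lysosomal Gusb 0.153. Hprt ran from 16.29 through 16.62 to 16.80 and Tbp from 14.52 through 15.26 to 15.45. The largest were Tfrc, the transferrin receptor, at 0.338 and the polymerase subunit Polr2a at 0.332, where more than 91% of bright probe sets had a smaller SD.

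Above the window, 8 reference genes had SDs under the members' limit. Their means were 18.44 to 19.11, where small SDs were common. The median SD of probe sets was 0.0602 at 18 to 19 and 0.0303 at 19 to 20. Rps18 had 0.0225, Rpl13a 0.0249 and Rpl19 0.0297. Eef1a1 (0.0325), Actb (0.0356), Rps29 (0.0358), Eef2 (0.0461) and Rplp0 (0.0503) followed. Atp5b (0.0667), Ywhaz (0.0699), Tubb5 (0.0807), Pgk1 (0.0832), Oaz1 (0.0893), B2m (0.0918), Nono (0.107) and Ldha (0.136) were over the limit. Of the 8 under it, Rplp0 fell by 0.14 over 47 h, Eef2 by 0.10 and Rpl13a by 0.04 in the trend fit described below. Those falls were called, and no trend was called in the rest of the 8.

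**Figure D3:**
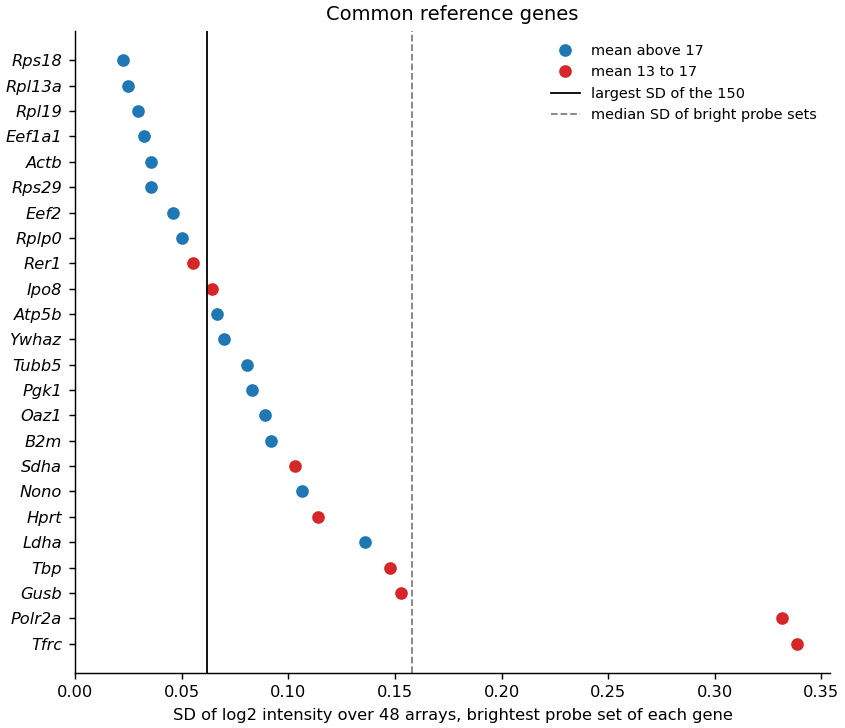
The SD of log2 intensity over 48 arrays is plotted for the brightest probe set of each of 24 reference genes, blue for means above 17 and red for means of 13 to 17. The 8 blue points and Rer1 lie left of the solid line, the largest SD of the 150, and Tfrc and Polr2a lie far right of the dashed line, the median of bright probe sets at 0.158.

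Whether constancy in 1 day carried over to hours that the choice had not used was examined by choosing on 24 arrays and measuring on the other 24. The 150 bright probe sets of smallest SD in hours 20 to 43 had a median SD of 0.0572 in hours 44 to 67, against 0.123 for all bright probe sets. All 150 were under that median, and 123 were among the 10% of smallest SD. The reverse choice, on hours 44 to 67, gave a median of 0.0683 in hours 20 to 43 against 0.153, with 150 under the median and 115 among the 10% of smallest SD. In their own window the chosen probe sets had medians of 0.0511 and 0.0451, so the SD was larger in the hours not used. The part that level plays in these values, given the fall of SD with level, was not tested.

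The lists of the separate windows shared 50 probe sets, or 33.3% of each. These were members too, which the choice on both windows together nearly fixes. Among them were the 10 members of smallest SD from Cdca4 to Atad1. Also shared were Arpc5, Tfg, Cdc40, Supt16, Rab2a and Arf4. Of the members, 95 were in the list of hours 20 to 43 and 76 in that of hours 44 to 67. A shared probe set could still shift between days: Zfp251 was 0.09 log2 units higher in the later window and Lrpap1 0.08, while Snx18 fell by 0.06.

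**Figure D4:**
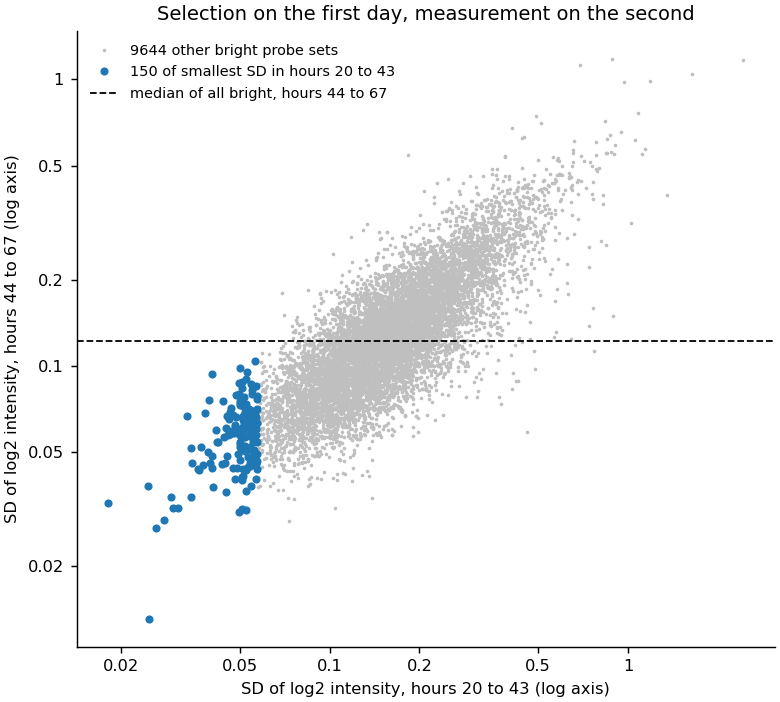
The SD of each bright probe set in hours 20 to 43 (x axis) is plotted against its SD in hours 44 to 67 (y axis), both on logarithmic axes. The 150 of smallest SD in the earlier window (blue) all lie under the dashed line, the median of 0.123 in the later window.

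Other probe sets for the members' genes offered a second view through other probes. There were 300 of them in 117 genes, of which 141 in 81 genes were bright. Their median SD was 0.127, below the 0.159 of the rest of the bright probe sets. That it lay above the members' 0.0558 was fixed by the rule, which had taken every smaller SD. Relative to probe sets of like level the median was 0.882, and 94 of the 141 (66.7%) were under 1, compared with 49.0% of the rest. Across the hours, members and other probe sets of the same gene had a median Pearson correlation of 0.26 over 144 pairs, which shared arrays and RNA. Pairs of members for 1 gene had correlations from 0.27 (Pdrg1) to 0.70 (Nus1). The 3 members of Pdrg1, a subunit of a chaperone complex, had SDs of 0.0464, 0.0601 and 0.0615, and the 2 of Nus1, needed for dolichol synthesis, 0.0519 and 0.0580. Prdx4, a peroxidase of the endoplasmic reticulum, had members with 0.0496 and 0.0617 and another probe set above the window with 0.0961.

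A 24 h cosine and a linear change over the hours were fitted to all 45037 probe sets with limma. The cosine passed a Benjamini-Hochberg adjusted p of 0.05 in 0.293% of all probe sets and in 1 of the 150 members, Mocs2, which encodes the subunits of molybdopterin synthase. A rising trend was called in 14.2% of all probe sets and in 14 members, and a falling trend in 16.2% and in 23 members. Since the choice used the spread over these hours, the members' counts only describe them. With array medians made equal, 14 members rose and 12 fell, and with quantile normalization 11 rose and 37 fell, so the split of directions depends on the scaling. In the rest of the bright probe sets 29.4% rose, 29.0% fell and 0.612% passed the cosine test.

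The fitted changes in members were small by selection. The median amplitude, from mean to peak, was 0.017 log2 units and the highest 0.043, that of the proteasome subunit Psma7. Mocs2 ran from 16.06 at hour 22 through a median of 16.21 to 16.33 at hour 58, with an amplitude of 0.040 ± 0.006 (SE) and a first peak at hour 32.5. It also rose by 0.12 over the 47 h. Its promoter, at chr13:114818117-114818256 on the plus strand, is shown with capitals for a GC box and for overlapping NRF1 sites of both strands.
Mocs2: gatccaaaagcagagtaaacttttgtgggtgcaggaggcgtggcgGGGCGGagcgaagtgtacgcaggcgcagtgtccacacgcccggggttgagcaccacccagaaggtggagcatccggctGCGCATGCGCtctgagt

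The largest fitted trend was that of Zfp251, a zinc finger protein, which rose by 0.16 over 47 h, from a lowest value of 16.22 at hour 28 to a highest of 16.45 at hour 51. Lrpap1, a chaperone of lipoprotein receptors, rose by 0.14 and Rnf2, a ubiquitin ligase of Polycomb, by 0.12. Rbm15, an adaptor of RNA methylation, fell by 0.13, the small GTPase Rhoa fell by 0.12, the membrane-bending Snx18 fell by 0.12 and the repair nuclease Ercc5 fell by 0.11. Trends were thus present among probe sets whose whole range was small. When a linear trend was removed before the SD was taken, 95 of the members remained among the 150 smallest.

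In the other probe sets of the members' genes, 0 of 300 passed the cosine test in limma, beside 0.293% of all probe sets. An unadjusted p under 0.05 was found in 39 of the 300. How many of all probe sets had such an unadjusted p was not counted, so the 39 is a description only. Among these 300, 45 rose and 65 fell. Within the 141 bright ones 22 rose (15.6%) and 41 fell (29.1%), beside 29.4% and 29.0% of the rest of the bright probe sets. Of the pathway lists with members, oxidative phosphorylation had 21 rising and 10 falling of 84 bright probe sets, and vesicle transport 68 and 39 of 222. The cytoskeleton list had 13 rising and 21 falling of 76, and the ubiquitin list 50 and 52 of 185. The lists without a member were not alike. Of 32 lysosomal probe sets 29 rose and 0 fell, but membrane pumps, adhesion and carriers had 52 rising and 52 falling of 166. Chromatin and nucleosome had 13 and 22 of 65, the core clock 9 and 4 of 14. Elongation factors had 0 and 4 of 6, and glycolysis 1 and 4 of 6.

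Some arrays carried a large part of the remaining spread. The log2 difference between the 3′ and 5′ control probe sets of β-actin, a common measure of RNA integrity and labelling, was 0.97 to 2.42, and it exceeded 1.4 in 10 arrays, at hours 20, 22, 24, 36, 38, 40, 43, 45, 46 and 67. The median absolute deviation of members from their own medians was 0.0405 in these arrays and 0.0265 in the other 38. The values for all bright probe sets were 0.150 and 0.0811. These 10 arrays, 20.8% of the total, held 146 of the 300 highest or lowest hours of the members (48.7%). The same share was not counted over all bright probe sets. The share of variance that went with the β-actin difference had a median of 0.074 in members and 0.23 in the rest of the bright probe sets. Among members it was highest in Sf3b6 at 0.62. Since the choice used the spread over these same arrays, the contrast only describes the members. Without the 10 arrays, 84 of the 150 were chosen again, and the limma fit called a trend in 57 members (38.0%), 26 rising and 31 falling, beside 44.0% of all probe sets. The cosine was then called in 0 members and in 55 of all probe sets, fewer than the 132 with all arrays. Of the members 37 had an unadjusted p under 0.05, a level at which all probe sets were not counted. The median SD was then 0.0476 in the members and 0.0941 in the other bright probe sets of their genes. The amplitude of Mocs2 was 0.031 ± 0.007 (SE) without these arrays, where it was no longer called, and 0.035 ± 0.006 with β-actin as a covariate, where it was still called.

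Departures in a single array were largest for Uhmk1, a kinase that binds splicing factors, which was 0.30 below its median at hour 36. The splicing factor Sf3b6 was 0.28 below at hour 45, the tropomyosin Tpm3 was 0.24 above at hour 22 and Rhoa 0.23 above at hour 24, all in arrays of high β-actin difference. The apoptosis regulator Siva1 was 0.24 above at hour 34, in an array that was not. Uhmk1 thereby had the widest range of the 150, from 16.35 to 16.81. Its SD was 0.0759 in hours 20 to 43 and 0.0344 in hours 44 to 67.

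**Figure D5:**
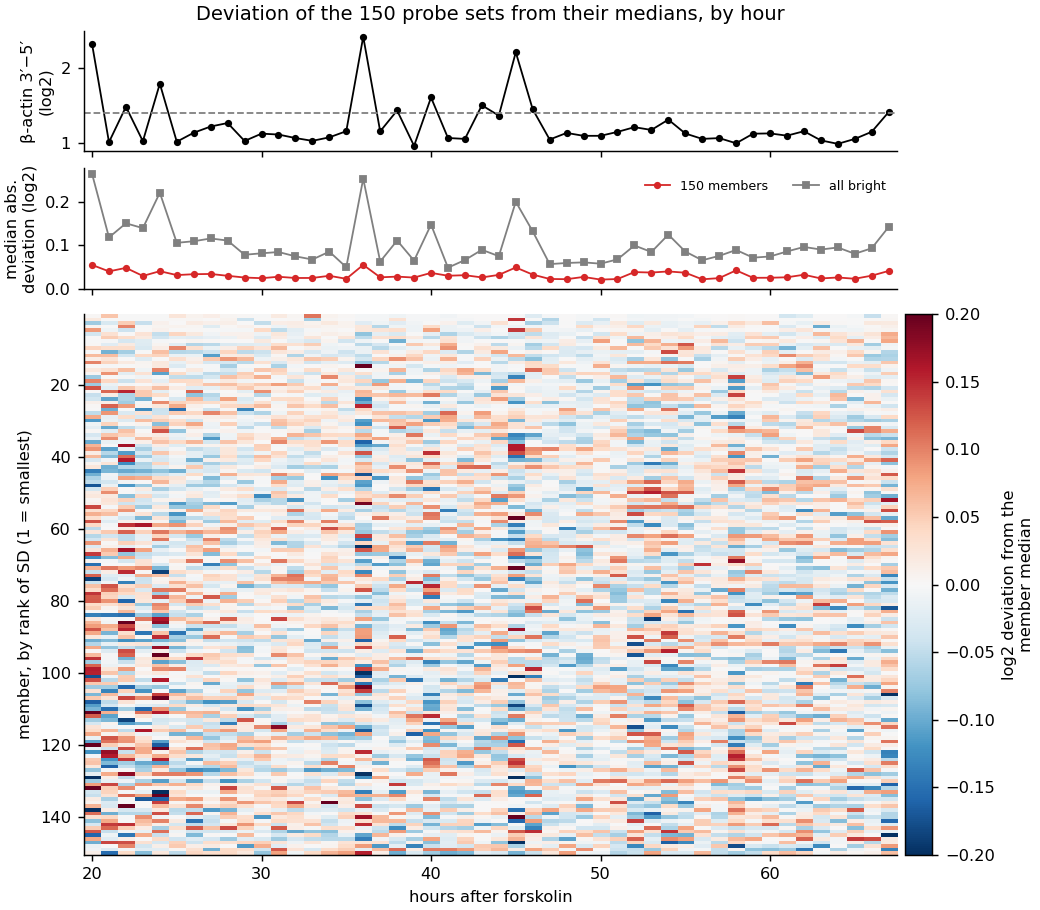
From top to bottom, by hours after forskolin, the panels show the β-actin difference with a dashed line at 1.4, the median absolute log2 deviation of the 150 members (red) and of all bright probe sets (grey), and the deviation of each member from its median in order of SD. Deviations of members are largest at hours 20 and 36, where the β-actin difference peaks, and the top rows are nearly blank.

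Correlations between members were spread about 0. Over 11175 pairs of members the median Pearson correlation across 48 arrays was 0.0078, with 90% of pairs between -0.37 and 0.38, and the median over all bright probe sets was 0.0008. The first principal component of the members' profiles, centred but not scaled, held 12.5% of the variance, compared with 48.6% in all bright probe sets. Without scaling, probe sets of large spread weigh most, and the rule kept these out of the members. From 1 hour to the next a member's deviations had a median correlation of 0.17, and those of the rest of the bright probe sets 0.28. The choice by small spread bears on this contrast as well. The brightest members, G3bp2, Prdx4, Hspa9, Ythdf1, Lpp, Mtap, Brk1, Usp7, Zfand6 and Nbdy, had means of 16.89 to 16.99 and SDs of 0.0459 to 0.0617. At the other end of the window were Ptpn12 and Cog1, the members of lowest mean, at 13.19 and 13.26.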

How the data were processed

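The arrays were Affymetrix mouse genome arrays, 1 per hourly sample. The deposited values are probe set intensities on a linear scale that the authors summarised and normalized between arrays. The study's methods name GCRMA for the values and MAS5 for present or absent calls, and the processing notes name MAS5. For neither is a version known here, nor is the constant by which values were scaled. Intensities were taken to log2 with no constant added, and no probe set was filtered out beyond the rule. No test included the 64 control probe sets. Of 45037 probe sets, 34945 carried 1 symbol, 932 several and 9160 none. Means of different probe sets were ranked on the intensity scale alone, which does not give relative amounts of transcript.

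A 24 h cosine and a linear hour term were fitted with limma 3.58.1 in R 4.3.3 over all probe sets and tested on simulated data first. Standard errors are those of the fit, whose error is the scatter between hours. The members, lists, named genes and tests were chosen with earlier results of these data known. Named were the 25 smallest SDs, the 10 highest means, up to 4 members per list, all reference genes, 5 on either side of the limit, up to 5 of smallest p per test and the 5 largest departures in 1 array, and others as examples chosen after their values were seen. The number of arrays limits precision.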

Additional observations from a re-analysis of the deposited data

How the results depend on the processing

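Of the 150 members, 125 were kept with quantile normalization, 111 with equal array medians, 130 without hours 52 to 55, 144 with the coefficient of variation, 110 with the range, 145 with means of 12 to 17 and 142 with means of 14 to 17. Fewer were kept when the 10 arrays of large β-actin difference were dropped (84), with hours 20 to 43 only (95), hours 44 to 67 only (76), the median absolute deviation (72), a linear trend removed (95) and the SD relative to like probe sets (75). The alternatives chosen after seeing the data kept 127 without x_at probe sets and 30 without an upper limit of the mean. The 127 was fixed in advance, since barring x_at probe sets removes only the 23 members of that kind. Leaving out 1 array kept 123 to 150, with 123 when hour 36 was left out. Members passing the cosine test in limma numbered 2 (Mocs2 and Psma7) without hours 52 to 55. They numbered 0 without the high β-actin arrays, with 37 at an unadjusted p under 0.05, a level not counted over all probe sets. Then 1 other probe set of the members' genes passed, that of Nus1. Members with a trend went from 37 to 57, and all probe sets with a trend from 13686 to 19838. The median SD of the members fell to 0.0476 without these arrays. Under the other settings, each total of members or of other probe sets called stayed within 1.5 times, but the falling members went from 23 to 37 with quantile normalization and to 12 with equal array medians. Over all probe sets, cosine calls went from 132 to 79 with β-actin as a covariate, to 201 without hours 52 to 55 and to 223 of the probe sets above the median. The causes were not tested. No paired analysis was possible because there was only 1 group.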
